A study of Mus musculus with 12 samples.

Results

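Immediate early genes are switched on within minutes of a stimulus, before any new protein is made, because the factors that drive them already sit in the cell. The members described here are Fos, Fosb, Jun, Junb, Jund, Egr1, Ier2, Atf3, Nr4a1 and Dusp1, chosen by gene symbol among the row names of the table of expression values. They are 10 of 15672 genes in that table, and 10 of 10 passed the filter on low values. Fosb passed mainly through YSGr, which held 4 of the 5 libraries in which its log2 CPM (CPM is the read count relative to library size) was above 0.

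The study profiled medulloblastoma, a tumour of the cerebellum, by bulk RNA sequencing of mice of both sexes at end point. YSGr mice had the genotype fYap1;fSMO-M2;hGFAPcre and SG mice the genotype fSMO-M2;hGFAPcre, with 3 libraries each of YSGr females, YSGr males, SG females and SG males. All groups share a conditional allele of SMO-M2, a Smoothened protein that signals without Hedgehog ligand, and Cre driven by the human GFAP promoter. That promoter is active in neural progenitors of the developing brain as well as in astrocytes, so Cre is not restricted to the tumour cells. The labels call YSGr rescued without saying what was rescued, give no ages, and do not say that libraries came from separate animals, so the spread behind each p-value is that of the samples at hand and may be technical. The series title asks about sex differences in the function of Yap1, a transcriptional coactivator.

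Growth factors, synaptic activity, cytokines and cell stress reach these genes through MAP kinases, calcium and cAMP signals that act on serum response factor, its ETS partners and CREB. Fos and Fosb pair with Jun, Junb or Jund to form AP-1, a dimeric factor that binds DNA, and Atf3 can join such dimers. Egr1 is a zinc finger factor and Nr4a1 an orphan nuclear receptor, while Dusp1 is a phosphatase that switches MAP kinases off again. In cerebellar granule neurons the same genes are read as signs of recent electrical activity, and they also respond to the dissection of tissue.

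Yap1 itself had 7 to 33 estimated reads per YSGr library and 174 to 253 per SG library, and its log2 fold change was -3.64 (SE 0.20, adjusted p = 1.1e-06, limma). Libraries held 8854779 to 9478696 estimated reads, and a floor of 3 reads corresponded to 0.301 to 0.333 CPM. Of the 14147 genes tested, 1617 (11.4%) passed an adjusted p of 0.05 between YSGr and SG averaged over the sexes. For GC content, SG male 2 was set against the median of the other SG libraries of both sexes. The tenth of genes richest in GC, which holds Junb, Jund and Ier2, lay at a median of 0.38 log2 units above it. The tenth poorest in GC lay at -0.32. YSGr male 8 had a summed oligodendrocyte marker level of 10991 CPM, against 1162 to 3216 CPM in the other YSGr libraries and 1829 to 2996 CPM in SG. Results without either or both of these libraries are given for several members and gene lists, but not for single genes outside the members. Of 15 markers of granule progenitors and medulloblastoma 6 fell and 1 rose in YSGr, among them the Hedgehog target Gli1, which averaged 7.55 log2 CPM in YSGr and 8.37 in SG (adjusted p = 0.0018, limma).

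Some of the motifs searched matched just upstream of the starts of some members. Of the 10 members, 8 matched the RefSeq promoter table (build GRCm38.p6), and the 250 bases before the annotated start are printed in lower case for the members whose transcripts rose (Fos, Junb) and for those of the others that hold a searched motif. Capitals mark matches to a motif, on either strand, read 5′ to 3′ along the gene's own strand.
Fos, chr12:85473640-85473889, plus strand: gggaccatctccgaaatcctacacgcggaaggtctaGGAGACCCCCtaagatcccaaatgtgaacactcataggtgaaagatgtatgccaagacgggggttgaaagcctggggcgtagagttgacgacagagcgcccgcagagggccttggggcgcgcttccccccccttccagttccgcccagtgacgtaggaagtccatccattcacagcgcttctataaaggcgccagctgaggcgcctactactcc
Fosb, chr7:19310046-19310295, minus strand: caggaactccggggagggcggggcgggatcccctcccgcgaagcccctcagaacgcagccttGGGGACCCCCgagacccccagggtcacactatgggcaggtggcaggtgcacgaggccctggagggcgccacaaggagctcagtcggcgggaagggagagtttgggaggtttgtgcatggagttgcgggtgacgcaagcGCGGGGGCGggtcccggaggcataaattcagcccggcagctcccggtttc
Junb, chr8:84978749-84978998, minus strand: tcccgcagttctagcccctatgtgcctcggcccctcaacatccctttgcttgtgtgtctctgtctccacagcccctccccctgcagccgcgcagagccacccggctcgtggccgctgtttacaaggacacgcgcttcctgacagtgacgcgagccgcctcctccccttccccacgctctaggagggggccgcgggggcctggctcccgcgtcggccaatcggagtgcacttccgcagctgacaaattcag
Nr4a1, chr15:101266596-101266845, plus strand: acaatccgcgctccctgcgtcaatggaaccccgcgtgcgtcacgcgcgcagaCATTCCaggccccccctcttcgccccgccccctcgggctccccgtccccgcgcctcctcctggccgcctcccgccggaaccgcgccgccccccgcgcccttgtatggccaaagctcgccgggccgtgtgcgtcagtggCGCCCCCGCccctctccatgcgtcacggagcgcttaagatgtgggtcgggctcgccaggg
Dusp1, chr17:26508473-26508722, minus strand: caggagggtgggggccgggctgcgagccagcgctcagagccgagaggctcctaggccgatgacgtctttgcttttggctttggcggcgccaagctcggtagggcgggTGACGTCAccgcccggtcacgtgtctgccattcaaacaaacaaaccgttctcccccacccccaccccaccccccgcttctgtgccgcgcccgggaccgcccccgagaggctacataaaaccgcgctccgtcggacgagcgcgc
The cAMP response element, TGACGTCA, was found in Dusp1 at bases -143 to -136 and lies in 1.55% of the 32851 promoter windows of the table. An EGR site, GCGNGGGCG, was found in Fosb at -50 to -42 and, on the opposite strand, in Nr4a1 at -60 to -52, and lies in 4.70% of all windows. A match to the NF-kB consensus lay in Fosb at -188 to -179 and, on the opposite strand, in Fos at -214 to -205 (7.25% of all windows). The TEAD site, CATTCC, whose family of factors binds YAP, was found in Nr4a1 at -198 to -193 and lies in 12.6% of all windows. Neither the CArG box (1.47% of windows), which serum response factor binds, nor the AP-1 site TGANTCA (6.75%) matched in any of the 8 member windows, and Junb held none of the 6 motifs. The Jund window, chr8:70697489-70697738, ends before the start of Jund in the GENCODE M21 annotation, base 70698949, and does not adjoin it. The windows of Nr4a1, Dusp1 and Atf3 lie inside the GENCODE spans of these genes. Motif positions in Nr4a1 and Dusp1 therefore count from other starts than the ends of those spans. No searched motif overlapped another in these windows, and a missing match says only that these letters are not in the stretch searched.

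Many of the members have few exons. By the GENCODE M21 annotation of mm10, 4 of 10 (Jun, Junb, Jund and Ier2) have 1 exon in their longest transcript, compared with 925 (5.93%) of the 15602 genes of the table that matched the annotation. Fos spans chr12:85473890-85477273, Fosb chr7:19302696-19310051, Jun chr4:95049034-95052222 and Nr4a1 chr15:101254269-101274795. Junb (chr8:84974484-84978718), Jund (chr8:70698949-70700616) and Ier2 (chr8:84661331-84662852) share chromosome 8. Atf3 lies at chr1:191170296-191218039, Dusp1 at chr17:26505590-26562128 and Egr1 on chromosome 18. Junb overlaps Prdx2, a peroxiredoxin gene on the opposite strand, by 351 bases. Dusp1 overlaps Ergic1, also on the opposite strand, by 640 bases. Jun, Jund, Atf3 and Dusp1 also overlap annotated genes that are not among those measured. Whether counting used strand is not given in the sources used here, so reads of the overlaps cannot be told apart. Prdx2 had a log2 fold change of -0.31 (adjusted p = 0.24) and Ergic1 of -0.12 (adjusted p = 0.33, limma).

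Jund and Jun had the highest median levels per length in both genotypes, with 146 and 46.5 CPM per kb of exon in YSGr and 163 and 54.3 CPM per kb in SG. Fosb had the lowest, at 0.275 CPM per kb in YSGr and 0.0767 CPM per kb in SG. The YSGr order was Jund, Jun, Ier2, Dusp1, Junb, Fos, Egr1, Nr4a1, Atf3 and Fosb. The ranges of 5 neighbouring pairs overlapped in YSGr (Ier2 and Dusp1, Dusp1 and Junb, Fos and Egr1, Egr1 and Nr4a1, Nr4a1 and Atf3), so their order was not set. In SG the order was Jund, Jun, Ier2, Dusp1, Junb, Egr1, Nr4a1, Fos, Atf3 and Fosb, and Junb with Egr1, Egr1 with Nr4a1, and Fos with Atf3 overlapped. Fos stood sixth in YSGr and eighth in SG.

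**Figure D1:**
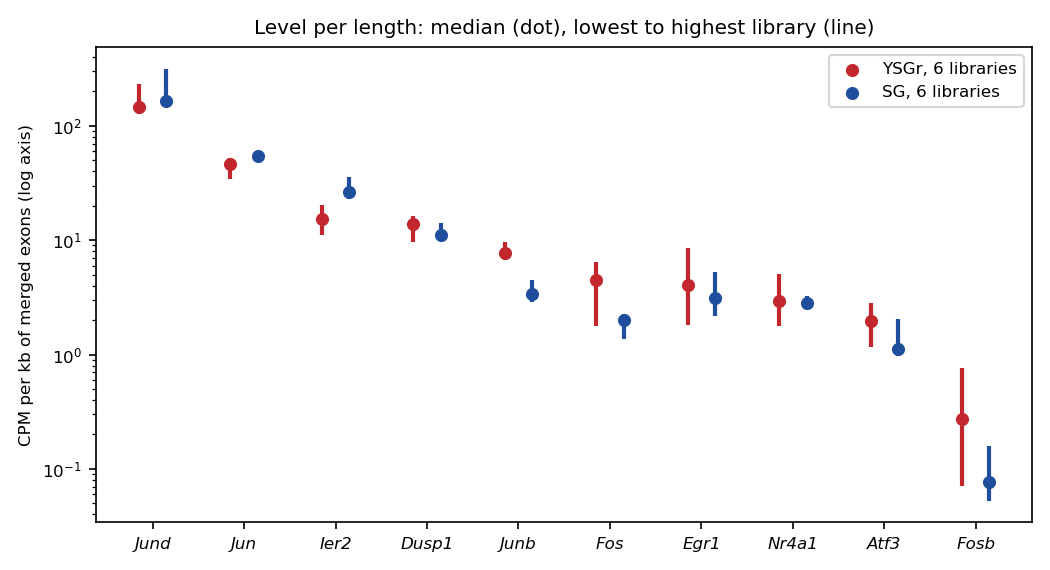
Level of each immediate early gene in CPM per kilobase of merged exons, on a log axis, with YSGr left of SG for each gene. Dots are medians of 6 libraries and lines run from the lowest to the highest library; the lines of Junb, Ier2 and Jun do not overlap between the genotypes.

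In YSGr tumours, averaged over the sexes, Junb and Fos were higher and Ier2 lower than in SG tumours. These were 3 of the 10 members, against 11.4% of all genes tested (6.16% higher and 5.27% lower in YSGr), and the median log2 fold change was 0.21 over the members and -0.00 over all genes. Fosb, Atf3 and Jun came next, with an unadjusted p under 0.05 for 6 members in all, against 28.6% of all genes, and Jund, Egr1, Nr4a1 and Dusp1 had fold changes within 0.23 of 0 on the log2 scale. Groups of 6 libraries that do not overlap were found for Junb, Ier2 and Jun, compared with 5.9% of all genes tested (2.93% with YSGr above SG and 2.96% with YSGr below).

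Junb, a Jun protein that activates transcription more weakly than Jun in many settings, showed the clearest difference. It had 15.8, 16.8 and 15.3 CPM in YSGr females and 19.1, 22.3 and 20.2 CPM in YSGr males, against 9.54, 6.66 and 7.00 CPM in SG females and 8.13, 10.3 and 7.47 CPM in SG males. Every YSGr library lay above every SG library. Mean log2 CPM was 4.19 ± 0.21 in YSGr and 3.05 ± 0.24 in SG (SD, n = 6 each), and the log2 fold change was 1.14 (SE 0.14, adjusted p = 0.00028, limma), or 2.23-fold by mean CPM. Leaving out any 1 of the 12 libraries kept this call, with log2 fold changes of 1.09 to 1.22 and adjusted p up to 0.0017, and without both SG male 2 and YSGr male 8 it was 1.18 (adjusted p = 0.00047).

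Jun, the prototype of the family, stood slightly lower in YSGr. Its level was 167, 144 and 150 CPM in YSGr females and 147, 110 and 161 CPM in YSGr males, against 176, 171 and 170 CPM in SG females and 180, 169 and 177 CPM in SG males. All 6 YSGr libraries lay below all 6 SG libraries, but the log2 fold change of -0.26 (SE 0.10) did not pass the threshold (adjusted p = 0.11, limma). SG libraries spanned 0.085 log2 units and YSGr libraries 0.60, with YSGr male 8 lowest. Without SG male 2 and YSGr male 8 the log2 fold change was -0.19 (adjusted p = 0.074, limma).

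Jund, the most abundant member and one that many cells express without a stimulus, had 257, 386 and 297 CPM in YSGr females and 212, 210 and 231 CPM in YSGr males. In SG it had 277, 283 and 247 CPM in females and 268, 528 and 255 CPM in males. Female YSGr libraries lay within the SG range and male YSGr libraries below it, and SG male 2 was the highest of the 12. The averaged log2 fold change was -0.20 (SE 0.17, adjusted p = 0.45, limma) and -0.02 without SG male 2 and YSGr male 8.

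Junb made up a median of 3.83% (range 2.56 to 5.70%) of the summed level per length of Jun, Junb and Jund in YSGr and 1.51% (1.197 to 1.84%) in SG. Jund made up 70.1 to 81.5% in YSGr and 72.3 to 84.6% in SG. For every 100 Jun reads there were 9.51 to 20.3 Junb reads in YSGr libraries and 3.90 to 6.09 in SG libraries, with YSGr male 8 highest.

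Fos, the founding partner of Jun in AP-1, was higher in YSGr with more spread. It had 6.19, 12.1 and 4.22 CPM in YSGr females and 9.53, 15.1 and 11.4 CPM in YSGr males, against 4.67, 5.35 and 4.27 CPM in SG females and 4.73, 3.22 and 4.95 CPM in SG males. Of the 6 YSGr libraries, 5 lay above all SG libraries, and YSGr female 12 lay among them. Mean log2 CPM was 3.20 ± 0.67 in YSGr and 2.23 ± 0.24 in SG (SD, n = 6 each), and the log2 fold change was 0.97 (SE 0.24, adjusted p = 0.020, limma). This call ended without SG female 6 (0.93, adjusted p = 0.057) and without SG male 2 together with YSGr male 8 (0.79, adjusted p = 0.063).

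Fosb, a close relative whose truncated product accumulates after repeated stimulation of neurons, was close to the detection floor. It had 15, 46 and 4 estimated reads in YSGr females and 7, 36 and 18 in YSGr males, against 6, 9 and 3 in SG females and 5, 4 and 4 in SG males. YSGr female 11 and YSGr male 8 held most of the 126 YSGr reads, and 4 YSGr libraries lay above all SG libraries. The log2 fold change of 1.36 (SE 0.48) did not pass the threshold (adjusted p = 0.085, limma). It passed without YSGr female 12 (1.72, adjusted p = 0.020) or YSGr male 7 (adjusted p = 0.045).

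Fos made up 15.2 to 46.9% (median 29.95%) of the summed level per length of Fos, Fosb, Fosl1 and Fosl2 in YSGr and 18.8 to 26.1% (median 20.8%) in SG. Fosl2 was the largest share in most libraries, at 35.3 to 71.3% in YSGr and 58.6 to 70.1% in SG. These shares overlapped between the genotypes.

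**Figure D2:**
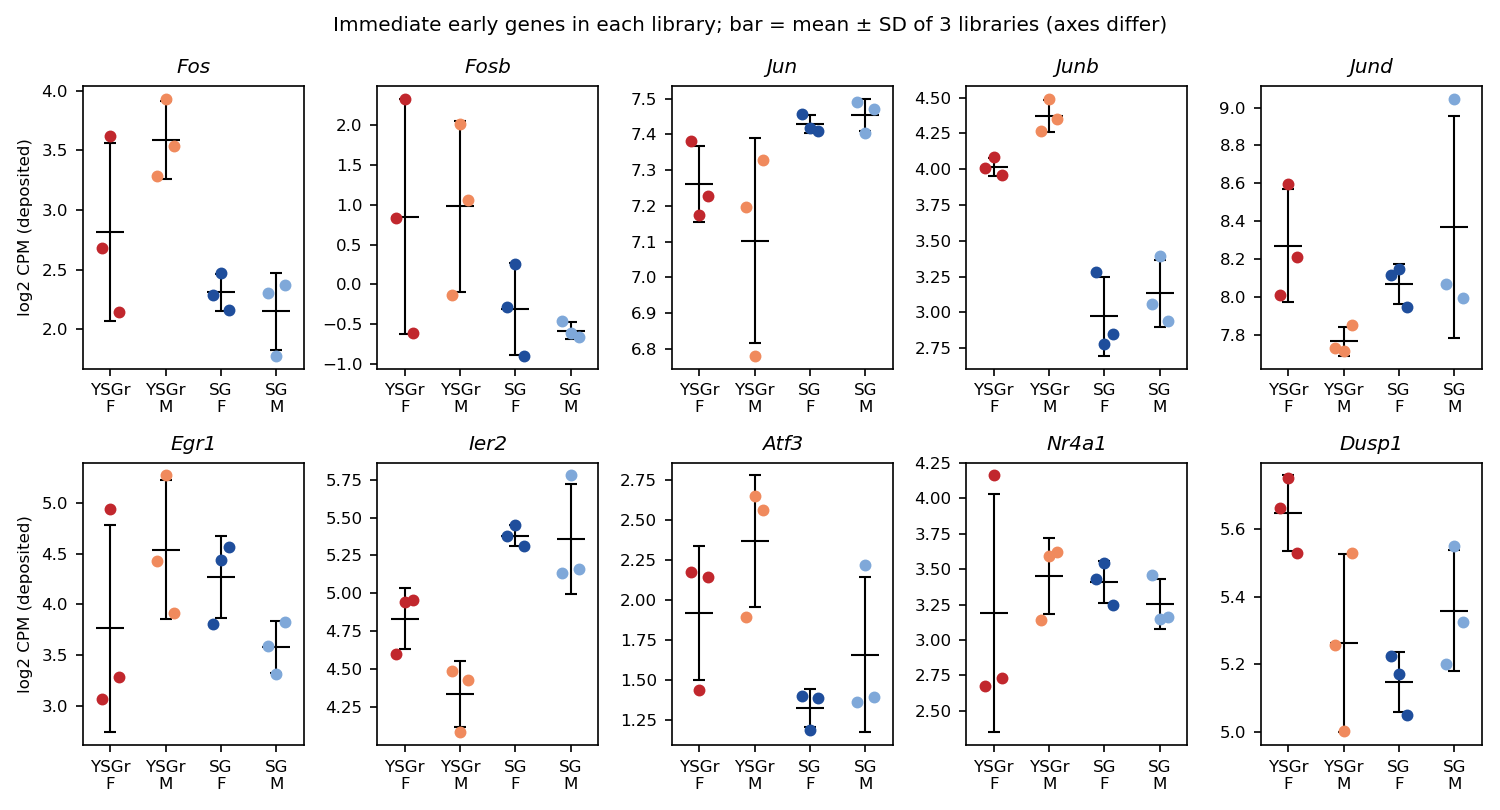
Deposited log2 CPM of the 10 immediate early genes in each library, grouped from left to right as YSGr females, YSGr males, SG females and SG males. Dots are libraries, bars are the mean ± SD of 3 libraries, and the axes differ between genes; the YSGr dots of Junb lie above and those of Ier2 below all SG dots.

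Ier2, a nuclear protein induced with Fos by serum and growth factors, was lower in YSGr. Its level was 24.03, 30.6 and 30.8 CPM in YSGr females and 22.3, 16.8 and 21.3 CPM in YSGr males, against 41.4, 43.5 and 39.5 CPM in SG females and 35.0, 54.7 and 35.6 CPM in SG males. No YSGr library reached the lowest SG library. Mean log2 CPM was 4.58 ± 0.33 in YSGr and 5.37 ± 0.23 in SG (SD, n = 6 each), and the log2 fold change was -0.79 (SE 0.14, adjusted p = 0.0031, limma). It stayed past the threshold when any 1 of the 12 libraries was left out (-0.84 to -0.68, adjusted p up to 0.013) and without SG male 2 and YSGr male 8 (-0.62, adjusted p = 0.0025). Its direction was opposite to that of Fos and Junb.

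Egr1, the zinc finger factor most used as a sign of MAP kinase activity, did not differ detectably between the genotypes. It had 8.18, 30.4 and 9.54 CPM in YSGr females and 21.4, 38.4 and 14.9 CPM in YSGr males, against 13.8, 21.5 and 23.4 CPM in SG females and 11.8, 9.76 and 13.99 CPM in SG males. YSGr held 2 libraries above and 2 below the whole SG range. The log2 fold change was 0.23 (SE 0.31, adjusted p = 0.67, limma), and -0.02 without SG male 2 and YSGr male 8.

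Nr4a1 averaged 3.32 log2 CPM in YSGr and 3.33 in SG, with a wider span in YSGr. Its level was 6.19, 17.7 and 6.44 CPM in YSGr females and 8.63, 11.9 and 12.1 CPM in YSGr males, against 10.6, 11.5 and 9.30 CPM in SG females and 10.8, 8.65 and 8.73 CPM in SG males. The log2 range was 1.48 in YSGr and 0.40 in SG, with 3 YSGr libraries above and 3 below all SG libraries. Its log2 fold change was -0.01 (SE 0.23, adjusted p = 0.98, limma).

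Atf3, a repressor induced by many kinds of cell stress, had 4.30, 2.499 and 4.22 CPM in YSGr females and 3.51, 6.05 and 5.69 CPM in YSGr males, against 2.44, 2.07 and 2.41 CPM in SG females and 2.37, 4.44 and 2.42 CPM in SG males. SG male 2 lay among the YSGr libraries and the other 5 SG libraries below all of them. The log2 fold change of 0.65 (SE 0.23) did not pass the threshold with all libraries (adjusted p = 0.083, limma), and passed without SG male 2 (0.79, adjusted p = 0.034) or without YSGr female 11 (adjusted p = 0.048).

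Dusp1, the feedback phosphatase, had 50.5, 53.6 and 45.9 CPM in YSGr females and 38.0, 31.8 and 46.0 CPM in YSGr males, against 37.1, 35.8 and 32.9 CPM in SG females and 36.5, 46.7 and 39.9 CPM in SG males. The genotypes overlapped, with the YSGr females above the SG females. The averaged log2 fold change was 0.20 (SE 0.11, adjusted p = 0.25, limma) and passed only without SG male 2 and YSGr male 8 among the leave-outs run (0.32, adjusted p = 0.038).

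**Figure D3:**
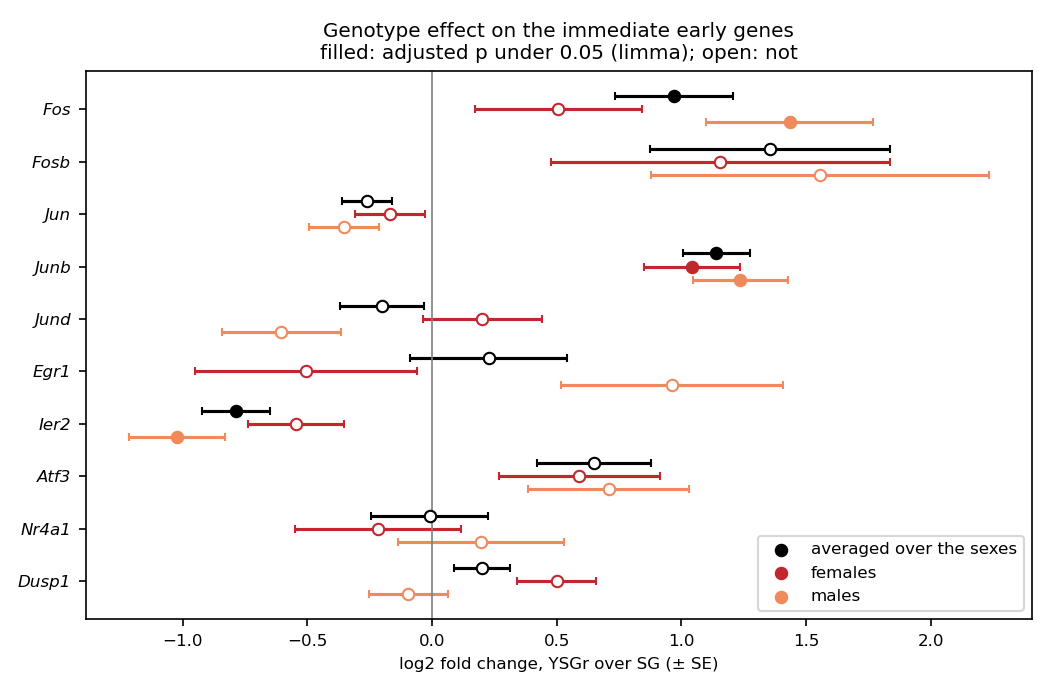
Log2 fold change of YSGr over SG (horizontal axis, ± SE) for each immediate early gene, in both sexes together and in each sex alone, with filled dots for an adjusted p under 0.05. Junb is filled in each contrast, Fos and Ier2 averaged and in males.

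Taken by sex, Junb was the member called in both. In females 1 of 10 members was called, against 3.01% of all genes (1.15% higher and 1.87% lower in YSGr), and in males 3 of 10, against 7.85% (4.43% higher and 3.42% lower). Junb rose by 1.04 on the log2 scale in females (SE 0.19, adjusted p = 0.012) and by 1.24 in males (SE 0.19, adjusted p = 0.0058, limma). The female call ended without SG female 5 (0.95, adjusted p = 0.080), SG female 6 (adjusted p = 0.075) or YSGr female 10 (adjusted p = 0.054).

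Fos rose by 1.43 in males (SE 0.33, adjusted p = 0.027, limma), a call that ended without SG male 2 (1.25, adjusted p = 0.087), YSGr male 8 (1.26, adjusted p = 0.10) or YSGr male 9 (adjusted p = 0.053). In females its log2 fold change was 0.51 (SE 0.33, adjusted p = 0.57). Ier2 fell by 1.02 in males (SE 0.19, adjusted p = 0.012), and its log2 fold change in females was -0.55 (SE 0.19, adjusted p = 0.17). Dusp1 stood at 0.50 in females (SE 0.16, adjusted p = 0.12) and at -0.10 in males (SE 0.16, adjusted p = 0.71).

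A direct test compared the sexes, without taking into account that YSGr females had fewer Yap1 reads left than YSGr males. The female effect minus the male effect was called for 0 of 10 members by limma, against 0.00707% of all genes. At an unadjusted p under 0.05 there were 3 members (Egr1, Jund and Dusp1), against 11.6% of all genes. A fit with library weights called 1 member, Egr1 (-1.75, adjusted p = 0.026, limma), against 4.77% of all genes. The difference was -1.47 for Egr1 (SE 0.63), 0.81 for Jund (SE 0.34), 0.60 for Dusp1 (SE 0.22) and -0.93 for Fos (SE 0.47), with adjusted p of 0.43 to 0.44. For Egr1 the parts were a log2 fold change of -0.51 in females and 0.96 in males, neither past the threshold, although with library weights the female value was -1.09 and passed (adjusted p = 0.0043, limma).

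Within YSGr, females against males gave 0 of 10 members called by limma (0.0778% of all genes). At an unadjusted p under 0.05 there were 3 members (18.1% of all genes), and with library weights 2 were called, Fos and Egr1 (12.9% of all genes). Fos stood at -0.77 (SE 0.33, adjusted p = 0.25) and Egr1 at -0.78 (SE 0.45, adjusted p = 0.36). Both passed without YSGr female 11, at -1.17 (adjusted p = 0.030) and -1.36 (adjusted p = 0.037). Within SG, 0 of 10 members were called between females and males (0.0353% of all genes), 0 had an unadjusted p under 0.05, and 0 were called with library weights.

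The spread among libraries of 1 group differed widely between members. After the 4 group means were removed, the SD was 0.95 log2 units for Fosb, which 2.18% of genes exceeded, and 0.66 for Egr1, which 7.82% exceeded. Nr4a1 (0.46), Fos (0.45), Atf3 (0.38) and Jund (0.33) followed. Ier2 (0.24), Junb (0.19), Dusp1 (0.17) and Jun (0.16) lay below the median of all genes, 0.27.

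The members of widest spread deviated in the same libraries. In pairs of Fos, Fosb, Egr1 and Nr4a1, grouped after their values were seen, Pearson's r of the deviations from group means was 0.63 to 0.90 over 12 libraries (6 pairs, median 0.79), and in the other 39 pairs it was -0.68 to 0.85 (median 0.06). YSGr female 11 was 0.80 above its group mean for Fos, 1.47 for Fosb, 1.17 for Egr1 and 0.97 for Nr4a1. YSGr male 8 was 0.35, 1.03, 0.73 and 0.14 above its group mean for the same genes. YSGr female 12 was below its group mean for each of them, by 0.67 for Fos and 1.46 for Fosb. For GC, each library was set against the median of the other libraries of its genotype, not against its group mean. By that measure, the tenth of genes richest in GC differed from the tenth poorest by 0.38 log2 units in YSGr female 11. The gap was 0.20 in YSGr male 8 and -0.33 in YSGr female 12, and its part in these values was not tested. These r values share libraries, depth and scaling between the genes and are descriptions.

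A second pattern linked Jund and Ier2 (r = 0.85), which were 0.68 and 0.42 above the group mean in SG male 2, the library in which GC-rich genes were high. Atf3 was 0.56 above in that library, and 9 of 10 members had their highest or lowest SG value there. YSGr male 8 held the highest or lowest value of all 12 libraries for 8 of 10 members, with Fos, Junb, Egr1 and Atf3 highest and Jun, Jund, Ier2 and Dusp1 lowest. The part of these 2 libraries' GC or cell make-up in the members' values was not tested.

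**Figure D4:**
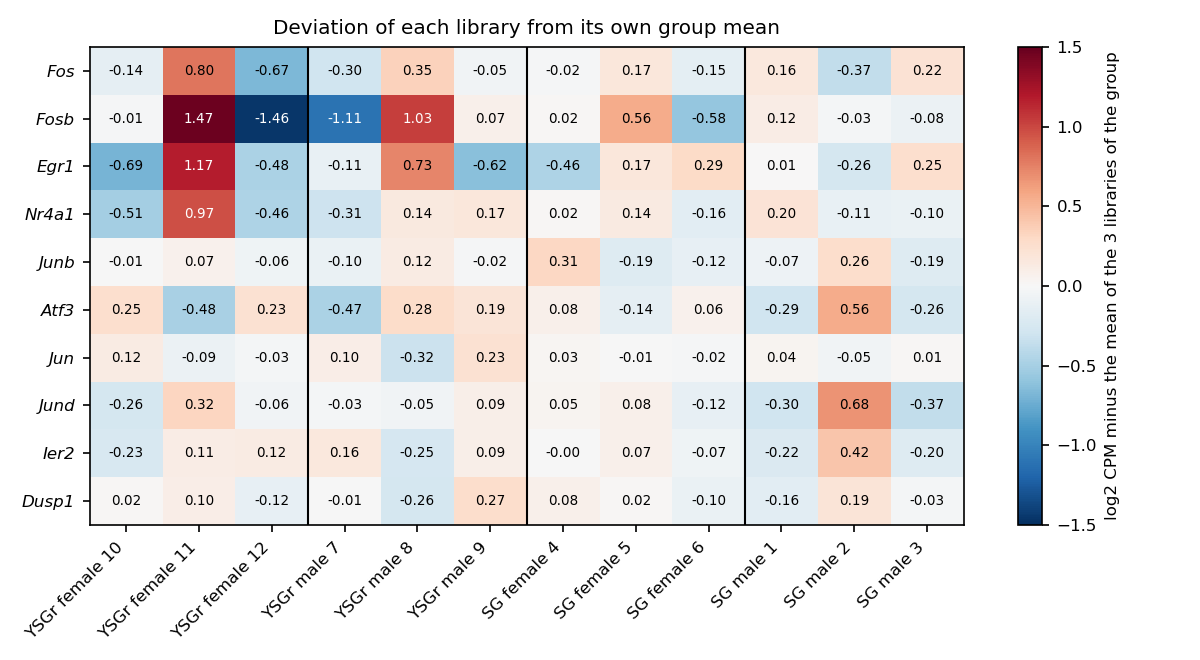
Deviation of log2 CPM from the mean of the 3 libraries of a group, for each immediate early gene (rows) in each library (columns, YSGr left and SG right), red above and blue below. The upper 4 rows are red in YSGr female 11 and YSGr male 8 and blue in YSGr female 12, and Jund, Ier2 and Atf3 are red in SG male 2.

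The genes most like the members over the 12 libraries were searched among 10794 genes with a mean log2 CPM above 3. Closest to the mean profile of the members were Srxn1 (r = 0.96), Diras1 (0.95), Atp6ap1 (0.93), Pak1 (0.92) and Lrpap1 (0.92). After removal of group means they were Atp6ap1 (0.97), Itpk1, Chchd10, Srxn1 and Wsb2. Fos was closest to Kcnc1, a potassium channel of fast-spiking neurons (r = 0.985), which had 885, 1523 and 571 reads in YSGr females and 1669, 2105 and 1646 in YSGr males, against 673, 616 and 534 in SG females and 742, 403 and 696 in SG males. Ier2 was closest to Tead2, a DNA-binding partner of YAP (r = 0.987), and Junb to Trf, which encodes transferrin (r = 0.97). Tead2 stood 0.75 lower on the log2 scale in YSGr and Trf 2.43 higher. Both were picked for likeness to members whose libraries do not overlap between the genotypes. Such a difference largely follows from the choice, and no test of it is read here. The best of so many genes reaches a high r with few libraries, and these are descriptions of likeness.

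Among 42 other early response genes, 6 rose and 1 fell in YSGr averaged over the sexes (median log2 fold change 0.20). That was 16.7% of the list, against 11.4% of all genes tested. The risen ones were Ptgs2, Arc, Cebpd, Cebpb, Ier3 and Fosl1. Cebpd and Cebpb, bZIP factors of the acute phase response, rose by 1.10 (SE 0.17, adjusted p = 0.0016) and by 1.01 on the log2 scale (SE 0.21, adjusted p = 0.0081, limma). Ier3, a survival gene induced by NF-kB, rose by 0.94 (SE 0.14, adjusted p = 0.0015), and Fosl1 by 0.66 (SE 0.19, adjusted p = 0.040). Ptgs2, an inducible prostaglandin synthase named after its values were seen, had 72 estimated reads over YSGr and 4 over SG. It passed the filter only through YSGr, so its difference is not independent of the filter. Ier5l fell by 0.55 (SE 0.13, adjusted p = 0.020). Leaving out 1 library gave 5 to 14 called genes in this list. Leaving out SG male 2 and YSGr male 8 gave 7, with no share of all genes given for that setting. The count over all genes moved too when 1 library was left out, for instance to 903 without SG female 6.

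Arc, a synaptic gene read as a sign of neuronal activity, shared the libraries of Fos. It had 38, 53 and 24 reads in YSGr females and 62, 175 and 63 in YSGr males, against 26, 33 and 22 in SG females and 27, 14 and 25 in SG males. YSGr male 8 was highest and SG male 2 lowest, as for Fos, and the log2 fold change was 1.17 (SE 0.29, adjusted p = 0.021, limma). No value of Arc without these libraries is given here. Nr4a3, the sister receptor of Nr4a1, had 28, 137 and 17 reads in YSGr females and 39, 52 and 38 in YSGr males, against 21, 23 and 16 in SG females and 20, 9 and 22 in SG males. It was highest in YSGr female 11, and its log2 fold change of 1.13 (SE 0.40) did not pass the threshold (adjusted p = 0.085). Of 15 activity-regulated neuronal genes, 2 rose (Arc, and Nrn1 by 0.66, adjusted p = 0.00061, limma) and 0 fell. That was 13.3% of the list, against 11.4% of all genes tested.

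**Figure D5:**
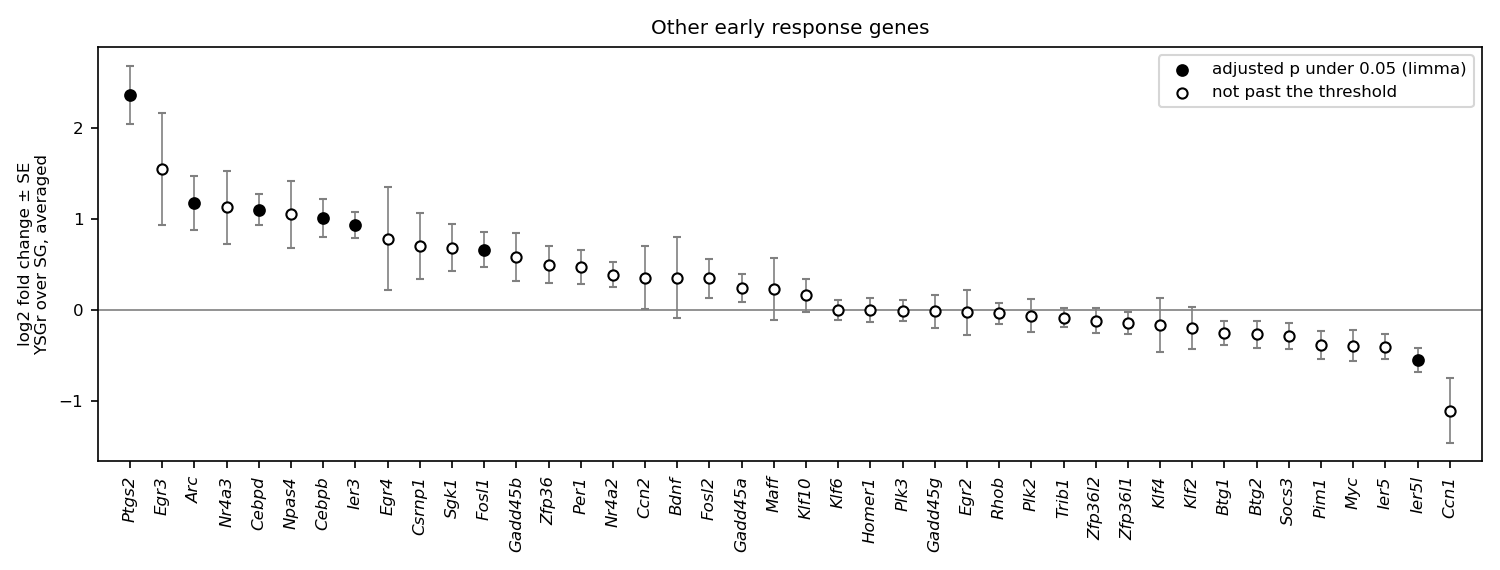
Log2 fold change of YSGr over SG averaged over the sexes (vertical axis, ± SE) for the 42 other early response genes, in order of size. Filled dots have an adjusted p under 0.05; 6 of them lie above 0 and Ier5l below it.

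Upstream of these genes, of 32 MAP kinases and upstream kinases tested, 3 rose and 3 fell, or 18.75% against 11.4% of all genes. Rps6ka2, a kinase that ERK activates, rose by 0.58 (adjusted p = 0.0061) and Mapk9, a JNK that phosphorylates Jun, by 0.44 (adjusted p = 0.031, limma). Erbb2, a growth factor receptor, fell by 1.83 (SE 0.23, adjusted p = 0.00046). Of 13 serum response factor and CREB regulators, 1 fell (Elk3, by 0.57, adjusted p = 0.029, limma) and 0 rose, or 7.69% called. Among 17 MAP kinase phosphatases and feedback inhibitors besides Dusp1, 0 were called by limma averaged over the sexes. At an unadjusted p under 0.05 there were 6, against 28.6% of all genes. Without SG male 2 and YSGr male 8, 4 were called. No share of all genes is given here for that setting, so this count is not read. Of 19 other AP-1 and bZIP partners tested, Fosl1 rose and 0 fell, or 5.26% called.

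Among 11 genes of YAP and its partners 45.5% were called, against 11.4% of all genes, and 5 fell and 0 rose. Besides Yap1 these were Tead2, Tead3, Ajuba (-1.96, adjusted p = 8.9e-05) and Wwtr1, the paralog TAZ (-0.88, adjusted p = 0.0025, limma). Ccn1, both an early response gene and a YAP target, stood at -1.10 (SE 0.35, adjusted p = 0.061).

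Of 13 NF-kB feedback and acute cytokine genes tested, 4 rose and 0 fell, or 30.8% against 11.4% of all genes. The chemokine genes Cxcl1 and Ccl2 rose by 3.55 (SE 0.24, adjusted p = 5.1e-06) and by 2.57 (SE 0.20, adjusted p = 1.6e-05), and Nfkbiz, a nuclear NF-kB cofactor, by 1.26 (SE 0.16, adjusted p = 0.00044, limma). The fourth, Il1b, named after its values were seen, had 143 reads over YSGr and 8 over SG and passed the filter only through YSGr. Cxcl1 passed mainly through YSGr, with 478 reads there and 30 over SG, where its log2 CPM was -0.89 to 0.05. Ccl2 was also low in SG, at -0.46 to 0.12. The share of this list called is thus not independent of the filter and is not read.

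Markers of other cells moved with the genotype as well. Counts of called markers stand against 11.4% of all genes tested. In bulk tissue, more cells of a type and more RNA per cell cannot be told apart. Of 13 infiltrating macrophage markers, 10 were tested and 7 rose, and their summed level was 454 to 925 CPM in YSGr and 170 to 223 CPM in SG. Of the 7, Ccr2 and Chil3 had no SG library above a log2 CPM of 0 and passed the filter only through YSGr. The 8 neutrophil markers in the table summed to 16.6 to 43.7 CPM in YSGr and 10.6 to 14.8 CPM in SG. Of the 6 that were tested, 5 passed the filter only through YSGr, so no count of them is read. Csf3r, which passed in both genotypes, rose by 0.56 (adjusted p = 0.024, limma). Among 14 markers of differentiating granule neurons, 3 rose, and the summed level was 5204 to 6708 CPM in YSGr, highest in YSGr female 11, and 4522 to 5398 CPM in SG. Of 12 endothelial markers 6 fell and 1 rose, with a summed level of 91.6 to 157 CPM in YSGr and 144 to 214 CPM in SG. Pericyte, fibroblast and meningeal markers had 4 of 12 fallen and 1 risen, and astrocyte and neural stem cell markers 4 of 13 fallen and 1 risen. Oligodendrocyte markers had 2 of 10 fallen, Olig1 and Olig2, and 0 risen. The median log2 fold change of the oligodendrocyte list was 0.15 averaged, -0.65 in females and 0.86 in males, so the list did not move in 1 direction. Microglia markers had 1 of 12 risen and 1 fallen. Of 5 erythroid markers 0 were called by limma and 3 had an unadjusted p under 0.05, against 28.6% of all genes. Of 10 T and NK cell markers 1 was tested and not called, and 9 had 3 reads or fewer per library on average over the 12 libraries. The part of these cells in the higher Fos and Junb was not tested.

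Heat shock genes, which tissue handling and heat induce, had 2 of 15 risen and 1 fallen, or 20% against 11.4% of all genes. Their summed level was 6032 to 8523 CPM in YSGr and 6397 to 9511 CPM in SG, highest in SG male 2. The 2 that rose, Hspa1a and Hspa1b, are near-identical copies whose reads cannot be assigned with certainty, so they are not separate results. Hspa1a, named after its values were seen, had 196 reads over YSGr and 32 over SG. In SG only SG female 4 (0.41) was above a log2 CPM of 0, so Hspa1a passed the filter mainly through YSGr. Hspa1b, which rose by 1.19 (SE 0.34, adjusted p = 0.041, limma), had 15, 27 and 10 reads in YSGr females and 29, 92 and 100 in YSGr males, against 16, 11 and 9 in SG females and 12, 11 and 24 in SG males. The 2 highest libraries were YSGr male 8 and YSGr male 9. Bag3, a heat shock cochaperone, fell by 0.52 (adjusted p = 0.029). Without SG male 2 and YSGr male 8, 1 gene of this list was called, a count not read because the share of all genes is not given for that setting. The part of handling in the members' values was not tested.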

How the data were processed

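RNA was measured in 12 libraries, 3 per combination of genotype and sex, sequenced on the BGISEQ-500 per the labels. The authors deposited log2 CPM values of 15672 genes. Per the submitters' processing notes, Trimmomatic 0.33, RSEM 1.2.12, Bowtie2, Picard 1.95, edgeR 3.30.3 and the build mm10 were used. Their roles and the use of strand: not given in the sources used here. The lowest value, -2.24, is that of a gene at 0 reads under a prior count of about 2. Turned back from log2, 92.0 to 93.8% of genes lay within 0.02 reads of a whole number, which gave estimated reads and CPM without the prior; CPM ratios and levels come from these.

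Genes with log2 CPM above 0 in at least 3 libraries (14147) were tested with limma 3.58.1 (R 4.3.3, statmod 1.5.0) on the deposited values, with 1 mean per group, a mean-variance trend, two-sided tests, Benjamini-Hochberg adjustment over all genes and a threshold of 0.05. There were 6 comparisons. Fold changes include the prior and understate those of low genes. The fit was tested on simulated data. Levels per length used merged exons of GENCODE M21, to which 99.6% of gene names matched. Alternatives were other filters, scalings, a pseudocount of 1 CPM, library weights, robust fitting, genotype alone and left-out libraries.

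The members, gene lists and tests were chosen with earlier results of these data known. All members are named, and from each further list the called genes and up to 2 others by size with mean log2 CPM above 1, at most 6. The 21 lists were those whose counts the text or the closing section gives, and genes named outside this rule are said to be. Not every gene the rule takes is reported here.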

Additional observations from a re-analysis of the deposited data

Results flagged for a closer look

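In 20 groups of 6 libraries (each of the 10 members in YSGr and in SG), the highest or lowest library lay apart from the rest by Dixon's criterion in 3. Chance flags about 1 in 20 groups. The gap to the nearest library, as a share of the group's whole range, was 0.655 for Jun in YSGr, where YSGr male 8 was lowest. The share was 0.818 for Jund in SG, where SG male 2 was highest, and 0.793 for Atf3 in SG, again with SG male 2 highest. The critical value for 6 libraries is 0.625. Of these 3 genes none was called between the genotypes with all libraries by limma, and Atf3 was called without SG male 2 (log2 fold change 0.79, adjusted p = 0.034).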

How the results depend on the processing

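No paired analysis was possible because the groups share no replicate numbers. No result turned its direction while past the threshold, and values that were not called changed sign 42 times (averaged over the sexes, in Egr1 and Nr4a1 only), under the alternatives run. Of the members' values under other settings, 1269 stayed on the same side of the threshold, 25 passed it newly and 10 no longer passed. Fits with library weights called more: 7 members averaged, 6 in females, 5 in males, 1 for the female minus male effect and 2 between the sexes in YSGr, and over all genes 4986, 4483, 2326, 675 and 1819, with 28 between the sexes in SG. Fits on only the 6 libraries compared called 2 members in females and over all genes 761 in females, 318 in males and 7 between the sexes in YSGr. Without both SG male 2 and YSGr male 8, 3 members were called in females, and 1267 genes in females, 247 in males and 19 between the sexes in YSGr; there Ier2 and Dusp1 joined Junb in females, and Fos was lost averaged and in males. Ier2 in males was also lost on the 6 libraries alone (adjusted p = 0.060, limma). With 1 library left out, called members ranged from 0 to 2 in females and from 0 to 2 between the sexes in YSGr, and called genes from 903 to 2087 averaged, 94 to 785 in females, 289 to 1665 in males, 1 to 115 for the female minus male effect and 9 to 1029 between the sexes in YSGr. The causes were not tested. A count test was not run, since the recovered reads were not whole for nearly all genes. Other scalings moved the median of all genes by less than 0.1. With 3 libraries a group and Fosb near the floor, small differences are not detectable.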
